A study of Mus musculus with 20 samples.

Results

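Voltage-gated sodium channels open when the membrane depolarises and carry the inward current that starts the action potential in heart, skeletal muscle and nerve. A pore-forming alpha subunit makes the channel, and beta subunits, single-pass membrane proteins with an immunoglobulin-like domain, alter its gating and its place in the membrane. Scn4a is known best as the alpha subunit of skeletal muscle. Scn4b encodes the beta-4 subunit, whose intracellular tail is known to act as an open-channel blocker in neurons.

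The genes described are 4 of these subunits, Scn4b, Scn4a, Scn7a and Scn3b, taken by their symbols out of the 25052 genes listed for each library. Set beside them are 7 other subunit genes of the family, Scn2b, Scn3a, Scn1a, Scn2a1, Scn8a, Scn10a and Scn11a. Scn4b was chosen by its values in these same libraries, namely its lower level in iKO hearts on chow and its higher level with the high-fat diet. Its values are therefore given as a description, without a test, in every comparison. Of the 4 genes, 3 passed the filter on low values (at least 0.5 FPKM in at least 5 libraries), and Scn3b did not.

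RNA came from frozen left ventricle of 20 male mice, with 5 mice in each of 4 groups of genotype and diet. In iKO mice, ACC2 f/f (both Acacb alleles floxed) was combined with MerCreMer, a Cre recombinase fused to modified estrogen receptor domains that tamoxifen activates. Their WT littermates were also ACC2 f/f and lacked the Cre, so the floxed alleles were shared by all 4 groups. Both genotypes received tamoxifen when 8 weeks old, at 20 mg/kg over 5 days. Feeding of either chow or D12492, a high-fat diet (HFD) from Research Diets, began 4 weeks later and lasted 16 weeks. The groups are iKO on HFD, WT on HFD, iKO on chow and WT on chow. Acacb encodes ACC2, the mitochondrial-membrane acetyl-CoA carboxylase that makes malonyl-CoA, which restrains fatty acid entry into mitochondria. The labels do not name the promoter that drives MerCreMer, and no Cre-positive mice lacking floxed alleles were included, so loss of ACC2 and presence of the Cre cannot be told apart.

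Acacb averaged 8.95 ± 0.464 FPKM in iKO and 38.6 ± 1.57 FPKM in WT hearts on chow, and 10.6 ± 1.13 FPKM in iKO and 37.8 ± 2.93 FPKM in WT hearts on HFD (SD, n = 5 each), with no overlap between genotypes. Esr1, whose sequence the MerCreMer fusion holds in part, lay between 421 and 1617 FPKM in the 10 iKO libraries and between 0.26 and 2 FPKM in the 10 WT libraries. Estimated assigned reads numbered between 12.5 M in iKO chow library RT7 and 31.9 M in WT HFD library RT18. The 10 markers of heart muscle cells summed to 33946 to 38330 FPKM in the chow libraries and to 26485 to 32956 FPKM in the HFD libraries. These ranges did not overlap. The 7 atrial markers summed to between 24.9 and 707 FPKM, with the highest sums in WT chow library RT1 (707) and iKO chow library RT4 (379). The chow libraries carry the numbers RT1 to RT10 and the HFD libraries RT11 to RT20, so diet and the order of library numbers cannot be told apart.

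Scn4b, on chromosome 9 (ENSMUSG00000046480.5, chr9:45138395-45154152 on the plus strand of GRCm38), had 9.74, 7.73, 7.40, 5.74 and 7.77 FPKM in the 5 iKO hearts on chow, against 14.89, 20.57, 16.81, 17.52 and 19.67 FPKM in the 5 WT hearts on chow. Every iKO heart on chow was below every WT heart on chow. On HFD, Scn4b had 17.97, 21.98, 18.34, 24.50 and 22.22 FPKM in iKO hearts, against 27.51, 22.72, 23.10, 26.76 and 27.52 FPKM in WT hearts. On this diet the genotypes overlapped, because the 24.50 FPKM of iKO library RT17 was above the 22.72 and 23.10 FPKM of WT libraries RT14 and RT16.

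On chow, Scn4b averaged 7.68 ± 1.42 FPKM in iKO hearts and 17.9 ± 2.27 FPKM in WT hearts (SD, n = 5 each), a ratio of 0.429. On HFD it averaged 21 ± 2.78 FPKM in iKO hearts and 25.5 ± 2.41 FPKM in WT hearts, a ratio of 0.823. On the log2(FPKM + 1) scale the iKO minus WT difference was -1.13 (SE 0.11) on chow and -0.27 (SE 0.11) on HFD. On chow, 3 of the 12775 genes tested had a lower difference and Scn4b ranked 4th from the bottom. With HFD against chow the difference was 1.35 (SE 0.11) in iKO hearts, a ratio of mean FPKM of 2.74, and 0.49 (SE 0.11) in WT hearts, a ratio of 1.43. In both genotypes every HFD library was above every chow library. The diet difference in iKO less that in WT was 0.86 (SE 0.15), which ranked 12th from the top of all genes tested. Because Scn4b was chosen by such differences, its ranks only describe it and lend them no weight. From low to high the group levels ran iKO on chow, WT on chow, iKO on HFD and WT on HFD. The chow levels of the 2 genotypes were apart, while WT on chow overlapped with iKO on HFD, and iKO on HFD with WT on HFD. In these bulk samples, fewer cells of a type and less RNA per cell cannot be told apart.

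**Figure D1:**
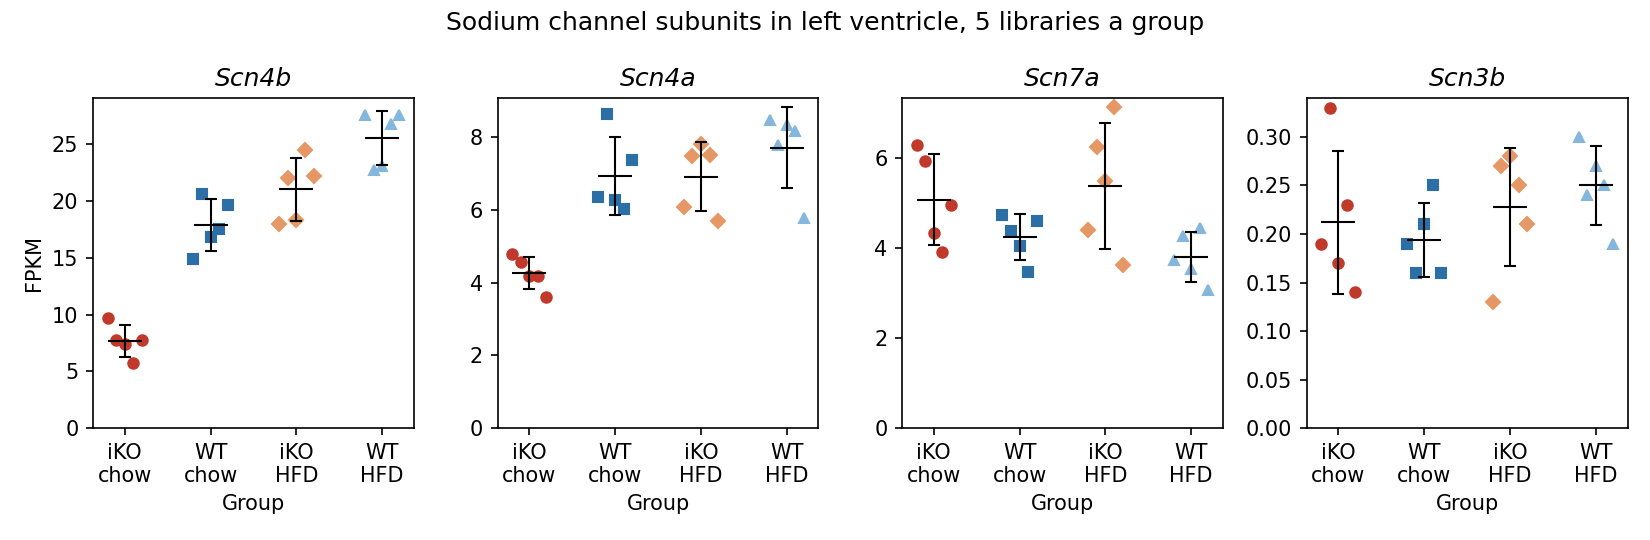
FPKM of Scn4b, Scn4a, Scn7a and Scn3b in each library (points), with the group mean and SD (bars, n = 5), for iKO and WT hearts on chow and on HFD; each vertical axis starts at 0 and has its own range. The 5 iKO hearts on chow lie below all others for Scn4b (5.74 to 9.74 FPKM) and for Scn4a (3.61 to 4.78 FPKM), while the Scn7a and Scn3b groups overlap.

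Scn4a showed the same order on chow at a smaller size. It lies on chromosome 11 (ENSMUSG00000001027.7, chr11:106318592-106353288, minus strand of GRCm38). On chow it had 4.78, 4.56, 4.18, 4.19 and 3.61 FPKM in iKO hearts, against 6.34, 8.61, 6.25, 6.02 and 7.37 FPKM in WT hearts. The genotypes did not overlap. On HFD it had 6.08, 7.46, 7.79, 7.49 and 5.70 FPKM in iKO hearts, against 8.45, 7.78, 8.33, 8.16 and 5.78 FPKM in WT hearts. On HFD the groups overlapped, and WT library RT19, with 5.78 FPKM, stood below the other 4 WT hearts.

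The levels of Scn4a on chow averaged 4.26 ± 0.446 FPKM in iKO hearts and 6.92 ± 1.08 FPKM in WT hearts (SD, n = 5 each). The difference on the log2 scale was -0.58 (SE 0.10), with a limma p of 0.00266 after Benjamini-Hochberg adjustment across the whole table. The subunits were chosen with earlier results of these data known, and no p given for Scn4a accounts for that choice. On chow, 1.06% of the genes tested were called (adjusted p below 0.05), and neither Scn7a nor Scn3a was. With HFD against chow, Scn4a rose in iKO hearts by 0.58 (SE 0.10, adjusted p = 0.00081 by limma), with every HFD library above every chow library. In that comparison 10% of genes were called. In WT hearts the diet difference was 0.14 (SE 0.10, adjusted p = 0.413 by limma), where 8.04% of genes were called. Between genotypes on HFD the difference was -0.14 (SE 0.10, adjusted p = 0.514 by limma), where 0.172% of genes were called. The diet difference in iKO less that in WT was 0.45 (SE 0.14) and did not pass the adjusted threshold (limma's adjusted p = 0.930 and its unadjusted p = 0.0054), with 0.0313% of genes called. The chow genotype comparison and the iKO diet comparison share the iKO chow libraries.

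The bases upstream of Scn4a are shown because Scn4a is the tested subunit that changed. The RefSeq promoter table (GRCm38.p6) holds windows for Scn4b, Scn4a and Scn7a. The Scn4a window covers chr11:106349391-106349640 on the minus strand, the 250 bases before the RefSeq start, which lies inside the GENCODE gene. Capitals mark CACCC, a motif of Krüppel-like factors, on either strand, so that GGGTG is the opposite-strand form.
Scn4a: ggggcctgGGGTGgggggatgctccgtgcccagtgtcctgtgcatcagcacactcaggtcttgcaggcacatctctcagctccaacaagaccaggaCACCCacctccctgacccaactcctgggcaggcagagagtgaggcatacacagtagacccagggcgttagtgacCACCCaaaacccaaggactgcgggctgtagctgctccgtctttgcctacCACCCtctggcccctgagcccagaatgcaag
It holds 4 copies of CACCC, and 52% of the 32851 windows of that length in the table hold at least 1. The share of windows with 4 or more was not counted. CACCC was added to the motifs after the window had been read. The other motifs searched on both strands were absent from it. These were AGGTCA, the nuclear receptor half-site, which 14% of windows hold. The T-box core GGTGTG is in 16.3% of windows. The clock-factor E-box CACGTG, which is also a CANNTG, is in 6.02%, and the general E-box CANNTG in 66.2%. The TATA box TATAAA is in 12.4% and the GATA core AGATAA in 9.99%. The GC box GGGCGG is in 32.7%, and the MCAT box of muscle genes, CATTCC, in 12.6%. The 250 bases before the RefSeq start of Scn4b, which also lies inside the GENCODE gene, held none of these motifs, CACCC included. Of these bases 229 lie in an annotated UTR, so their letters are not given. The Scn7a window overlaps a UTR by 4 bases and is likewise not given. It held 1 match each to the CACCC, MCAT, GC and GATA motifs and to the general E-box. These matches describe letters in a window and are not binding sites.

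Scn7a, on chromosome 2 (ENSMUSG00000034810.7, chr2:66673425-66784914, minus strand), encodes Nax, an atypical alpha subunit known as a sodium-level sensor in the brain. On chow it had 6.27, 5.92, 4.32, 3.90 and 4.95 FPKM in iKO hearts, against 4.72, 4.38, 4.04, 3.46 and 4.60 FPKM in WT hearts. On HFD it had 4.39, 6.23, 5.49, 7.12 and 3.62 FPKM in iKO hearts, against 3.73, 4.26, 3.53, 4.44 and 3.06 FPKM in WT hearts. The groups overlapped in each comparison, and the spread was wider in iKO hearts. The iKO minus WT difference was 0.20 on chow (SE 0.13, adjusted p = 0.524) and 0.39 on HFD (SE 0.13, adjusted p = 0.223), both by limma. HFD less chow was 0.06 in iKO hearts (adjusted p = 0.838) and -0.13 in WT hearts (adjusted p = 0.569), by limma. None of these passed the threshold, and the interaction did not either (0.18, adjusted p = 0.999).

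Scn7a was highest in the libraries with the highest summed levels of fibroblast markers. Most of these libraries were also high in markers of other cell types. Libraries RT2 and RT4 of iKO on chow and RT13, RT15 and RT17 of iKO on HFD had the 5 highest Scn7a values of all 20, from 5.49 to 7.12 FPKM. The same 5 libraries had the 5 highest sums of the 11 fibroblast markers. Those sums were 1329 FPKM in RT2, 1577 in RT4, 1403 in RT13, 1266 in RT15 and 1319 in RT17. The ranges by group were 748 to 1577 FPKM in iKO and 684 to 818 FPKM in WT on chow, and 685 to 1403 FPKM in iKO and 695 to 792 FPKM in WT on HFD. All 11 markers were measured and none was at 0, with Dcn and Gsn the most abundant (241 to 545 FPKM and 309 to 745 FPKM over all libraries). The sums thus follow mainly these genes, and not every marker followed the sums. Col3a1 had 9.74 to 16.53 FPKM in iKO hearts on HFD, below the 18.59 to 23.56 FPKM of WT hearts on chow. With HFD in iKO hearts 1 of the 11, Col3a1, was called lower and 0 higher, beside 10% of all genes. None of the 11 was called between genotypes, where 1.06% of all genes were called on chow and 0.172% on HFD. The part of fibroblasts in the Scn7a values was not tested. Markers of Schwann cells, 10 of 10 measured, summed to 26.4 to 37.8 FPKM in iKO and 24.6 to 30.0 FPKM in WT hearts on chow, and to 25.8 to 32.9 FPKM in iKO and 22.6 to 28.7 FPKM in WT hearts on HFD. Their 5 highest sums were in RT4, RT13, RT17, RT7 and RT2. Markers of macrophages, 8 of 8 measured and none at 0, summed to 172 to 262 FPKM in iKO and 171 to 198 FPKM in WT hearts on chow, and to 130 to 211 FPKM in iKO and 131 to 171 FPKM in WT hearts on HFD. Their 5 highest sums were in RT4, RT2, RT7, RT17 and RT13. Markers of neurons, 8 of 10 measured, had their 5 highest sums in RT4, RT15, RT2, RT17 and RT1, from 11.2 to 14.3 FPKM. The Schwann cell, macrophage and neuron lists thus each share 4 of their 5 highest libraries with Scn7a. Their part in the Scn7a values was not tested either. The 3 genes most like Scn7a over the 20 libraries, by Pearson's r of log2(FPKM + 1), were Matn2 (r = 0.92), Gucy1a3 (r = 0.92) and Cyp4v3 (r = 0.91). After the group means were subtracted their r remained between 0.87 and 0.90.

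**Figure D2:**
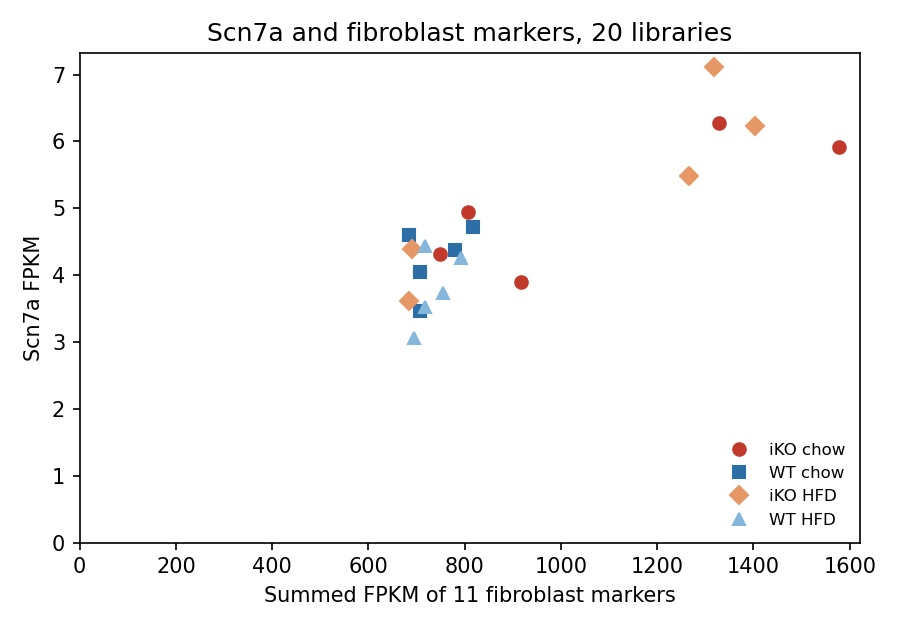
Scn7a FPKM (vertical axis) against the summed FPKM of 11 fibroblast markers (horizontal axis) in the 20 libraries, with a colour and symbol for each group. The 5 libraries at the upper right, all iKO, have marker sums of 1266 to 1577 FPKM and Scn7a values of 5.49 to 7.12 FPKM.

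Scn3b, on chromosome 9 (ENSMUSG00000049281.15, chr9:40269217-40291618, plus strand), encodes the beta-3 subunit. It was low in all groups, with 0.19, 0.33, 0.17, 0.23 and 0.14 FPKM in iKO hearts on chow, against 0.19, 0.16, 0.21, 0.25 and 0.16 FPKM in WT hearts on chow. On HFD it had 0.13, 0.27, 0.28, 0.25 and 0.21 FPKM in iKO hearts, against 0.30, 0.24, 0.27, 0.25 and 0.19 FPKM in WT hearts. The groups overlapped in each comparison. By an exact two-sided permutation test over all regroupings of 5 against 5, whose smallest possible p is 0.00794, p was 0.706 for iKO against WT on chow and 0.579 on HFD. For HFD against chow the exact p was 0.706 in iKO hearts and 0.0873 in WT hearts.

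Scn3a, an alpha subunit of neurons, lay between 0.26 and 0.72 FPKM and was called in none of the comparisons. Of the 6 others, Scn10a reached at most 0.38 FPKM, Scn8a 0.27, Scn2a1 0.23 and Scn2b 0.21 FPKM. Scn1a was at most 0.02 FPKM and Scn11a at most 0.01 FPKM in any library. Scn2b, the beta-2 gene, lies next to Scn4b on chromosome 9 (chr9:45117782-45130070, the same strand). Its exact permutation p lay between 0.302 and 0.706 in the 4 comparisons. Within 500 kb on either side of Scn4b, 13 other genes were tested and none was called between genotypes, where 1.06% of all genes tested were called on chow and 0.172% on HFD. Their differences on chow ran from -0.14 to 0.43. With HFD, 1 of the 13 was called in iKO hearts, Phldb1, and none in WT hearts, beside 10% and 8.04% of all genes. Within the same distance of Scn4a 25 genes were tested. On chow 1 of them was called between genotypes, Ddx5, and on HFD none, beside 1.06% and 0.172% of all genes. With HFD against chow, 5 of the 25 were called in iKO hearts (Taco1, Ddx42, Ftsj3, Psmc5 and Prr29), beside 10% of all genes. In WT hearts 5 were called (Taco1, Ccdc47, Ftsj3, Psmc5 and Icam2), beside 8.04% of all genes. These neighbours were named after their values were seen.

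**Figure D3:**
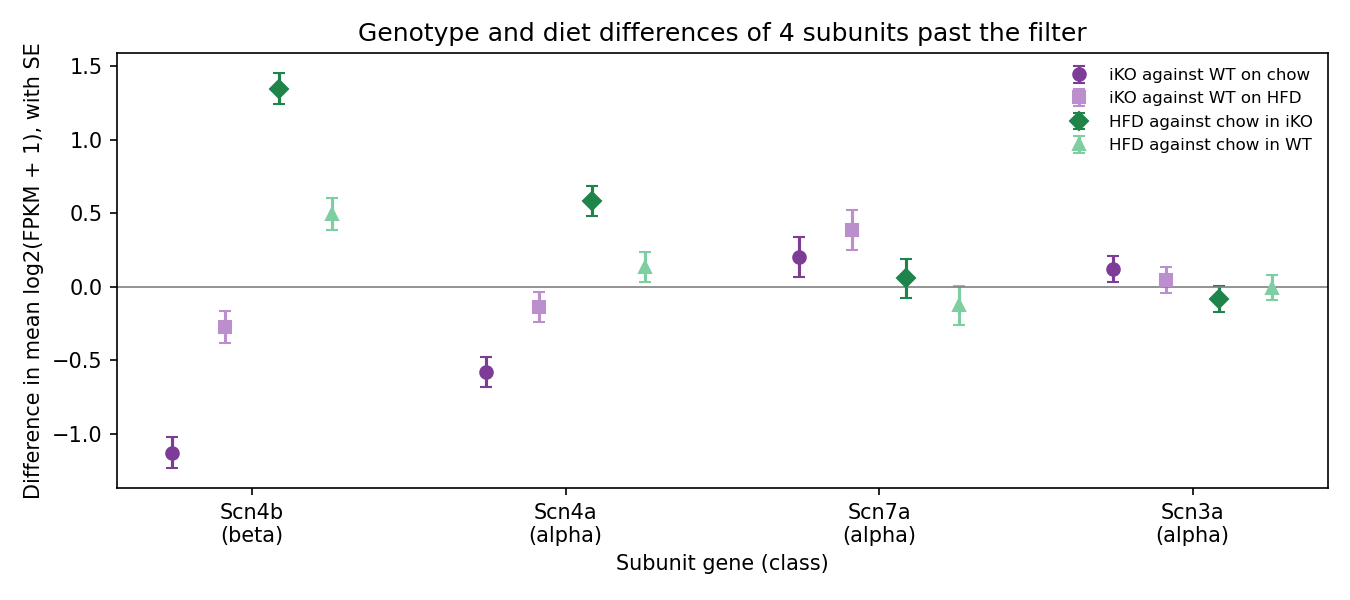
Differences in mean log2(FPKM + 1) with limma's SE (vertical axis) for 4 subunit genes past the filter (horizontal axis), in iKO against WT on chow and on HFD and in HFD against chow in iKO and in WT. Scn4b and Scn4a lie below 0 for iKO against WT on chow (-1.13 and -0.58) and above 0 for HFD against chow in iKO (1.35 and 0.58).

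Over the 20 libraries, the genes most like Scn4b by Pearson's r of log2(FPKM + 1), among the 11139 tested genes whose log2 values averaged at least 1, were Fabp3 (r = 0.97), the main fatty acid-binding protein of cardiac muscle, Etfdh (r = 0.96), which passes electrons from fatty acid oxidation to ubiquinone, Decr1 (r = 0.95) and Hadhb (r = 0.95), enzymes of mitochondrial beta-oxidation, and Fbp2 (r = 0.95), the muscle fructose bisphosphatase. Fabp3 averaged 2613 ± 75.8 FPKM in iKO and 3436 ± 55.8 FPKM in WT hearts on chow, and 3753 ± 116 FPKM in iKO and 4225 ± 281 FPKM in WT hearts on HFD (SD, n = 5 each). All values come from the same libraries, and r over the 20 includes the differences between the groups. After subtraction of the group means r was 0.65 for Fabp3, 0.32 for Etfdh, 0.31 for Decr1, 0.15 for Hadhb and 0.01 for Fbp2. The 3 genes with the lowest r were Atp6v1g1 (-0.92), Mr1 (-0.91) and Ndrg4 (-0.89).

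Among the subunits, Scn4a had r = 0.87 with Scn4b, 44th of the 11139 genes, and 0.25 within groups. Scn7a had r = -0.22 with Scn4b. The 3 genes most like Scn4a were Vwa8 (r = 0.87), Abcd3 (r = 0.87), a peroxisomal transporter of fatty acids, and Slc22a3 (r = 0.87), an organic cation transporter, with r between 0.32 and 0.48 within groups. Nothing about shared control follows from these values.

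**Figure D4:**
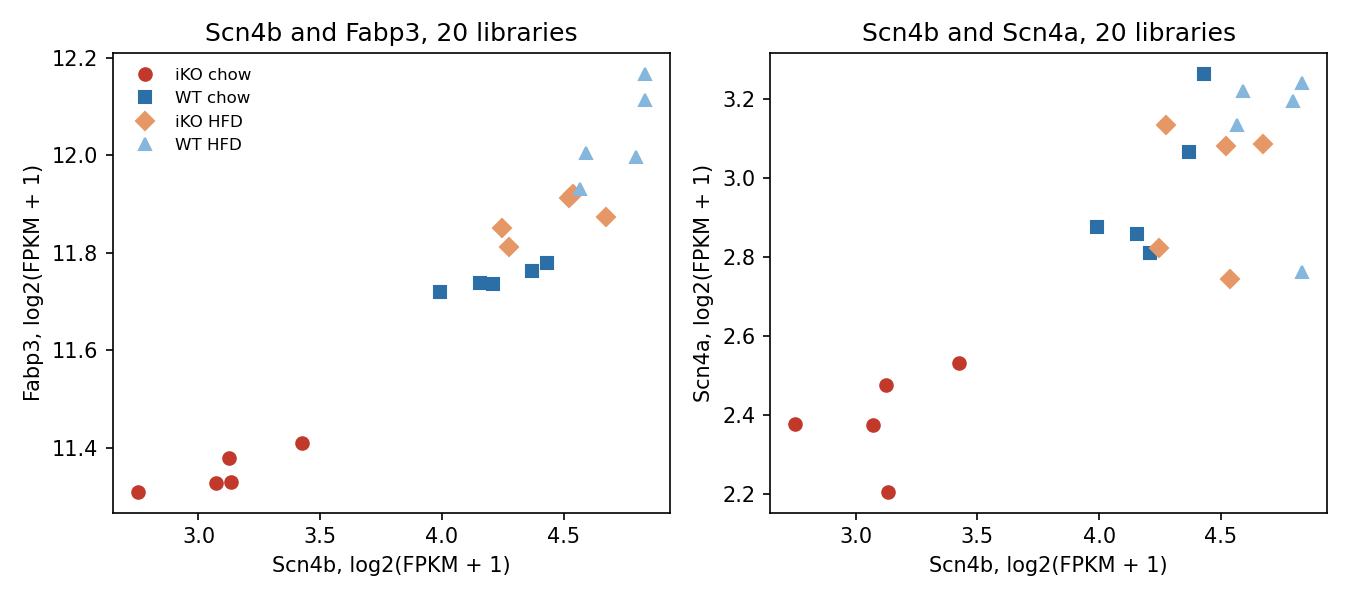
Log2(FPKM + 1) of Fabp3 (left) and Scn4a (right) against that of Scn4b in the 20 libraries, with a colour and symbol for each group. The 5 iKO chow libraries lie apart at the lower left in both panels, and r over all 20 libraries is 0.97 for Fabp3 and 0.87 for Scn4a.

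Proteins that bind, anchor or modify sodium channels were described next, from a list of 30, of which 25 were tested. None was called between genotypes, on chow (median difference 0.04, against 0.05 over all genes) or on HFD (median 0.03, against 0.06). Over all genes tested, 1.06% were called on chow and 0.172% on HFD. At an unadjusted level the smallest p on chow belonged to Ptpn3, a phosphatase that binds sodium channels (difference -0.23, adjusted p = 0.151 by limma). With HFD, 1 of the 25 rose and 5 fell in iKO hearts (median -0.07, as over all genes), where 10% of all genes were called. In WT hearts 0 rose and 3 fell (median -0.11, against -0.08 over all genes), where 8.04% of all genes were called. Ptpn3 rose in iKO hearts by 0.30 (SE 0.07, adjusted p = 0.0108 by limma). Rangrf and Gpd1l, both known to affect the surface level of sodium channels, fell with HFD in both genotypes, Rangrf by 0.30 in iKO and 0.21 in WT hearts and Gpd1l by 0.20 in each (adjusted p from 0.0041 to 0.0412 by limma). Cav3, the caveolin of muscle, fell by 0.23 in iKO hearts (adjusted p = 0.0196 by limma), and Gja1, the gap junction protein connexin 43, fell by 0.57 in WT hearts (adjusted p = 0.034 by limma). The falls of Rangrf, Gpd1l, Cav3 and Gja1 did not pass the threshold with the libraries scaled by median-of-ratios or upper quartile, under which 2 of the 24 genes tested, Ptpn3 and Dmd, rose and 0 fell in iKO hearts. Ptpn3 passed on each of these scales. In the chow genotype comparison Ptpn3 was called lower under both scalings.

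The 9 proteases and secretase parts known to cleave beta subunits were all tested. None was called between genotypes, beside 1.06% of all genes tested on chow and 0.172% on HFD. With HFD, Bace2 fell by 0.26 and Aph1b by 0.22 in iKO hearts (adjusted p = 0.0376 and 0.0411 by limma). Neither passed under the 2 other scalings, and none of the 9 was called in WT hearts. The diet comparisons called 10% of all genes tested in iKO and 8.04% in WT hearts. Bace1, the main protease of this group, averaged 10.3 ± 0.65 FPKM in iKO and 10.7 ± 0.653 FPKM in WT hearts on chow, and 11.8 ± 0.862 FPKM in iKO and 10.4 ± 1.15 FPKM in WT hearts on HFD (SD, n = 5 each). Its HFD less chow difference in iKO hearts was 0.17 (SE 0.07, adjusted p = 0.107 by limma). Under median-of-ratios and upper-quartile scaling it was 0.26 and 0.25 and passed the threshold (adjusted p = 0.0118 and 0.0104 by limma). Of 25 conduction genes and transcription factors known to act on sodium channel genes, 23 were tested. None was called between genotypes, and Tbx20 had the smallest p on chow (0.28, adjusted p = 0.113 by limma). With HFD, Irx4, a transcription factor of the ventricle, fell in iKO hearts by 0.46 (SE 0.10, adjusted p = 0.0057 by limma). Hcn2, a pacemaker channel, fell in WT hearts by 0.46 (SE 0.13, adjusted p = 0.0322 by limma), which did not pass under the other scalings. In each genotype 1 of the 23 was called with the diet, beside 10% and 8.04% of all genes.

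Among 16 other genes of membrane excitation in muscle, 12 were tested. Of these, 1 was called between genotypes on chow, beside 1.06% of all genes. That gene was Cacna1s, the calcium channel alpha subunit of skeletal muscle, which had 2.35 ± 0.493 FPKM in iKO hearts and 3.99 ± 0.353 FPKM in WT hearts on chow (SD, n = 5 each). Its difference was -0.58 (SE 0.12, adjusted p = 0.0123 by limma), and the adjusted p was 0.0506 without RT1 and RT4 together. On HFD it had 2.53 ± 0.526 FPKM in iKO and 3.95 ± 0.87 FPKM in WT hearts (difference -0.48, adjusted p = 0.112 by limma). With HFD, no gene of the list was called in iKO hearts, where 10% of all genes tested were called.

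Because Scn4a and Cacna1s are best known from skeletal muscle, its markers were examined. Of the 12 listed, 11 were measured and their summed level was 1.67 to 3.43 FPKM in iKO and 1.46 to 1.94 FPKM in WT hearts on chow. On HFD it was 1.21 to 1.59 FPKM in iKO and 1.34 to 1.96 FPKM in WT hearts. The median sums were 2.47 FPKM in iKO and 1.55 FPKM in WT hearts on chow, and 1.35 and 1.67 FPKM on HFD. The myosins Myh1 and Myh2 reached at most 0.01 and 0.02 FPKM, and Myod1 at most 0.06 FPKM. Other markers reached more, Tnni2 1.28 FPKM in RT6 and Pvalb 1.21 FPKM in RT7, both iKO on chow. The ranges of iKO and WT hearts overlapped on both diets, and the part of skeletal muscle cells in the Scn4a values was not tested. Of the 10 markers of heart muscle cells none was called between genotypes, where 1.06% of all genes were called on chow and 0.172% on HFD. With HFD, 6 of the 10 fell in iKO and 7 in WT hearts, where Scn4b was higher, while 1068 and 929 of the 12775 genes tested fell. Under both other scalings at most 2 of them were called, and the part of cell makeup in the diet differences was not tested.

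Over all genes, 136 were called on chow between genotypes (44 higher and 92 lower in iKO) and 22 on HFD (13 higher and 9 lower). With HFD, 1279 were called in iKO hearts (211 higher and 1068 lower) and 1027 in WT hearts (98 higher and 929 lower), and the interaction called 4. Scaled by median-of-ratios the splits were 18 higher and 130 lower on chow, 8 higher and 17 lower on HFD, 328 higher and 231 lower for the diet in iKO, and 174 higher and 149 lower in WT. By upper quartile they were 16 and 133, 7 and 20, 304 and 201, and 192 and 126. The differences of Scn4a and Scn4b kept their sign under both scalings.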

How the data were processed

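The deposited values are FPKM per gene in 1 table per library, made by the authors and printed to 2 decimals. Per the submitters' processing notes, Bowtie2, RSEM and DESeq2 were used and the build was mm9. GENCODE M21 (GRCm38) holds 24938 of the 25052 versioned gene IDs, 19995 of them with the same version, so coordinates are given on GRCm38 by ID. Per the labels' protocols, RNA with an integrity number above 8 was poly(A) selected (TruSeq) and sequenced as 100 nt single-end reads. FPKM are not counts, so no count test was run.

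The analysis used log2(FPKM + 1), a scale on which changes of low genes look smaller, for the 12775 genes reaching 0.5 FPKM in 5 or more libraries. Limma 3.58.1 (R 4.3.3) with an intensity trend and robust moderation was fitted to 20 libraries with 4 group means, the p adjusted over all genes tested (Benjamini-Hochberg) and called below 0.05. Python 3.11.15 with scipy 1.17.1 gave exact permutation tests for genes under the filter. The fit was tested on simulated data with normal noise, drawn independently for each gene. Changes were put only into genes whose log2 values averaged at least 1. Recovery in lower genes such as Scn3a, and shifts shared by many genes of a library, were therefore not examined. Between 2 groups it recovered 52% to 62% of 1.25-fold changes and 94% to 98% of 1.5-fold changes. For the interaction it recovered 30% and 68%. False calls made up 2.65% to 7.37% of the genes called. No batch is named in the labels, and libraries are separate mice, numbered as in the labels. Depth was estimated from the steps between low FPKM values of short genes.

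The subunits, the gene lists and the naming rule were chosen with earlier results of these data known. The rule names the subunits, up to 4 called members of each list per comparison by smallest p (or the smallest p if none), the 5 genes most and 3 least like Scn4b, and the 3 most like Scn4a and Scn7a. Results of some single genes, and shares of summed subunits that include them, are not reported here. No columns of per-sample values were left unused.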

Additional observations from a re-analysis of the deposited data

Results flagged for a closer look

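Scn4a in WT library RT19 on HFD was 5.78 FPKM, far from the other 4 WT hearts on HFD (7.78 to 8.45 FPKM), with a gap of 0.749 of the group's range against a critical ratio of 0.71. It was 1 of 16 groups of 5 libraries examined over 4 subunit genes, and chance passes this ratio in about 1 group in 20. RT19 was also the lowest of its group for Scn7a (3.06 FPKM) and among the highest for Scn4b (27.52 FPKM). Without RT19 the Scn4a difference of iKO against WT on HFD was -0.22 and that of HFD against chow in WT was 0.22, neither of which passed the adjusted threshold.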

How the results depend on the processing

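The differences of Scn4b kept their direction and moved by less than 1 residual SD under every alternative run, from -1.22 to -1.04 for iKO against WT on chow, -0.37 to -0.22 on HFD, 1.26 to 1.45 for the diet in iKO and 0.43 to 0.61 in WT. Scn4a remained called in iKO against WT on chow (adjusted p 0.00016 to 0.0146) and for the diet in iKO (6.3e-05 to 0.00408), and uncalled otherwise. The value for Scn7a with HFD in iKO changed sign when single libraries were left out (-0.038 to 0.165). With a pseudocount of 0.1 the Scn3b differences were larger, 0.07 against 0.02 as reported for iKO against WT on chow, -0.11 against -0.03 on HFD, 0.08 against 0.02 for the diet in iKO and 0.25 against 0.07 in WT, none with an exact p below 0.05 (0.0873 to 0.754). For Scn3b, leaving out 1 library gave -0.014 to 0.042 for iKO against WT on chow, -0.044 to 0.0032 on HFD, -0.0020 to 0.054 for the diet in iKO and 0.052 to 0.084 in WT, and leaving out RT1 and RT4 together gave -0.015 on chow. Its diet difference in WT passed an exact p of 0.05 under median-of-ratios (0.0857, exact p = 0.0238) and upper-quartile scaling (0.0882, exact p = 0.0159). It also passed without WT HFD replicate 19 and without WT chow replicate 8 (exact p = 0.0317 in each). The counts of genes called moved more. Between genotypes they were 87 on chow without RT1 and RT4, and on HFD 7 with no filter, 14 without trend and robust moderation, 5 with only the 2 groups compared, and 6 to 39 with 1 library left out. For the diet in iKO they were 830 with no filter, 559 by median-of-ratios, 505 by upper quartile, 712 with only the 2 groups compared and 844 without RT1 and RT4. For the diet in WT they were 622, 323 and 318 under the first 3 of these, and 625 to 1181 with 1 library left out. The interaction called 0 genes with no filter, under both scalings, without trend and robust moderation and without RT1 and RT4, and 0 to 5 with 1 library left out. The cause of these shifts was not tested. No paired analysis was possible because the groups share no replicate numbers. Depth limits the precision of low values such as those of Scn3b, which did not exceed 0.33 FPKM.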
